A study of Danio rerio with 2 samples.

Results

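The proteasome is the protease of the cytoplasm and nucleus that breaks down proteins tagged with ubiquitin. Its 20S core is a barrel of alpha rings, which gate the entry, and beta rings, which hold the proteolytic sites. The 19S regulatory particle on the end of the barrel binds the tagged protein, strips off the ubiquitin and unfolds the chain with a ring of ATPases. Dedicated chaperones build both parts, and other activators can take the place of the 19S particle. In the lens of vertebrates the ubiquitin-proteasome system is known for its part in protein turnover while fibre cells mature.

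Proteasome genes were taken by symbol: every row of the deposited table whose zebrafish gene symbol starts with psma, psmb, psmc, psmd, psme or psmg. This gave 55 of 51544 rows. Of these, 53 name core subunits, regulatory subunits, activators or assembly chaperones. The other 2, PSMC3IP and PSME3IP1, carry the name of a protein they bind. They form a role of their own, but counts and medians over all members include them. A further 3 Ensembl entries with such symbols (PSMD2 under 2 of them, and PSMB11) were not analysed here. Symbols in capitals are mammalian names that the names table gives to the zebrafish gene.

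RNA came from the heads of zebrafish embryos (AB strain) taken 33 hours after fertilisation; the cut ran just before the otic vesicle, from which the inner ear forms. The 2 groups were embryos of an rbm24a mutant line, rbm24a-/- in the series' design, with an 8 bp deletion made by TALEN in exon 1, and wildtype embryos. Rbm24a binds RNA, and translation and crystallin accumulation in the lens are the subject that the series title gives. Each group had 1 library, with 16667612 reads assigned to features in mutant heads and 14148577 in wildtype heads. The labels' protocol mentions several independent samples, but whether embryos or samples were pooled is not given.

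With 1 library per group no test across samples exists, and no p-value is given. Levels are reads scaled to a common library total (CPM). Ratios are log2((mutant CPM + 1)/(wildtype CPM + 1)), mutant over wildtype. Folds of single genes are mutant over wildtype CPM without the added 1. Each has a 95% Clopper-Pearson interval, which covers only the counting error, and reads copied by PCR are not independent molecules, so even that error may be larger. In bulk tissue, fewer cells of a type and less RNA per cell cannot be told apart.

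The rbm24a row (RBM24, ENSDARG00000102995, told from rbm24b by its span) had 121 reads in mutant heads and 224 in wildtype heads, a fold of 0.459 (interval 0.364 to 0.575). A deletion of 8 bp need not remove the transcript. Tissue markers also differed between the libraries. The lens list summed to 89.7 CPM in mutant heads and 922 CPM in wildtype heads, with 7 of 7 measured members lower by at least 2-fold. The red blood cell list summed to 107 CPM in mutant heads and 726 CPM in wildtype heads, with 6 of 6 measured members lower by at least 2-fold. The heart genes MYL7 and HAND2 together had 10.2 CPM in mutant heads and 0.495 CPM in wildtype heads, where MYL7 had 0 reads. Markers of brain and eye had a median log2 ratio of 0.03, with none of 7 past 2-fold. Of the markers of tissue near or behind the cut, stm was at a log2 ratio of -1.18, otomp at -0.13 and oc90 at 1.00. The part of this tissue difference in the proteasome values below was not tested.

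Messages of the proteasome were abundant, and their levels were close between the 2 libraries. Core, regulatory, activator and assembly genes together took 0.690% of all reads in mutant heads and 0.640% in wildtype heads. Of the 55 rows, 49 reached a mean of 1 CPM and are called measured, or 47 without PSMC3IP and PSME3IP1. None of the 49 differed by at least 2-fold, while across all 18094 measured features 2.22% were higher and 2.82% lower in mutant heads by that rule. At 20 CPM or more on average, which 45 members reach, those shares were 0.659% and 1.22% of 6976 features. The authors' deposited table of their comparison lists 37 genes, none of them a proteasome gene by this rule. The smallest fold in the authors' deposited table is 2.01 in either direction.

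A smaller difference, at least 25% higher or 20% lower on the log2 scale above (a log2 ratio of 0.32 either way), is called a small step here. By it 4 measured members were higher in mutant heads and 1 was lower. The 4 were PSMD9, PSMA5, PSMD4 and PSMG1, and the lower gene was PSMG3. These are 8.16% and 2.04% of the 49, against 17.3% higher and 18.2% lower among all measured features. At a mean of at least 20 CPM the shares of all features were 9.85% higher and 11.4% lower. The standard deviation of the log2 ratio was 0.18 over the 45 members of that level and 0.38 over the 6976 features.

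The small differences that were there lay mostly on the mutant side. The median log2 ratio of the 49 was 0.07, beside 0.00 for all measured features, and 33 lay above 0 and 16 below. The 16 include PSMC3IP and PSME3IP1. Of all 18094 measured features 49.8% lay above 0, and of those of at least 20 CPM 48.3%. With median-of-ratios size factors 39 members lay above 0 and 10 below, beside 9732 above and 8362 below among all measured features. The median of all features moved by 0.03 with that scaling. The counting interval lay wholly above a fold of 1 for 22 of the 49 (44.9%) and wholly below it for 4 (8.16%). PSMC3IP is among these 4. Among all measured features those shares were 21.8% above and 22.6% below, and among features of at least 20 CPM 27.0% and 29.4%. A counting interval narrows with the count, so it leaves 1 more readily for abundant genes such as these. The part of read depth in this count was not tested.

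**Figure D1:**
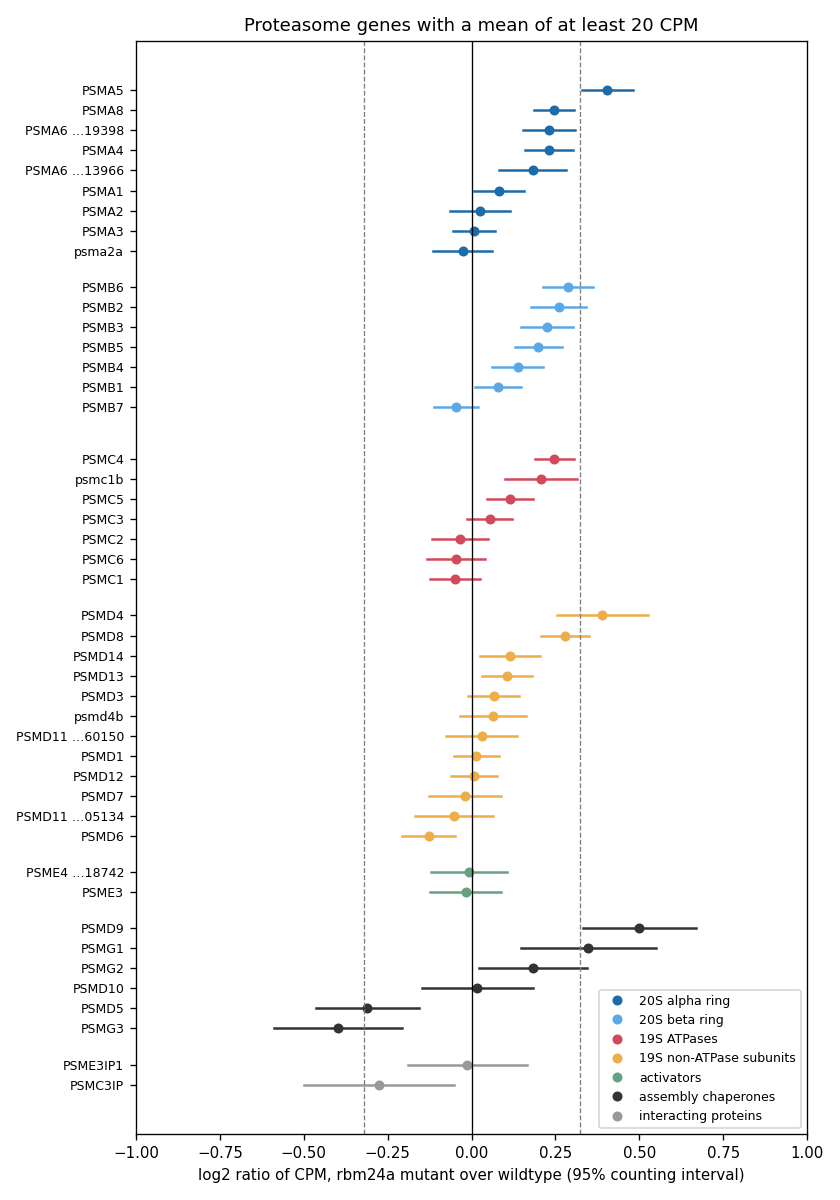
Log2 ratio of CPM, mutant over wildtype, by role, of the 45 proteasome genes with a mean of at least 20 CPM. PSMC3IP and PSME3IP1 are included. Bars are 95% counting intervals and dashed lines mark the small step, a log2 ratio of 0.32 either way. Core genes lie mostly right of 0, and the assembly chaperones spread from PSMG3 (fold 0.759) to PSMD9 (fold 1.41); for genes that share a symbol the end of the Ensembl identifier is added.

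The alpha ring genes of the 20S core were higher in mutant heads in most cases, by small amounts. Of 10 rows, 9 were measured, 8 of them above 0, with a median log2 ratio of 0.18. The intervals of 6 lay above a fold of 1 and those of none lay below it. Among all features of at least 20 CPM, 27.0% had intervals above 1 and 29.4% below. Summed over the ring, levels were 1790 CPM in mutant heads and 1600 CPM in wildtype heads, a fold of 1.12 (interval 1.099 to 1.138).

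PSMA5 (ENSDARG00000003526) had the highest ratio of the ring. It had 3596 reads or 216 CPM in mutant heads, against 2305 reads or 163 CPM in wildtype heads, a fold of 1.32 (interval 1.26 to 1.40). PSMA8 (ENSDARG00000010965), the most abundant of the ring by reads, had 322 CPM in mutant heads and 271 CPM in wildtype heads, a fold of 1.19 (interval 1.14 to 1.24). In mammals PSMA8 is the testis form of PSMA7; the RefSeq table lists psma7 as a synonym of zebrafish psma8, and the deposited table has no other row under that name. PSMA4 had a fold of 1.17 (interval 1.12 to 1.23) and PSMA1 1.06 (interval 1.005 to 1.11).

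PSMA3, whose product helps to gate the barrel, was level between the libraries within counting error, with 263 CPM in mutant heads and 262 CPM in wildtype heads (fold interval 0.962 to 1.05). psma2a had the lowest ratio, with 132 CPM in mutant heads and 135 CPM in wildtype heads (fold interval 0.923 to 1.04). The row not measured, psma6l, had 0 reads in mutant heads and 2 in wildtype heads.

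The beta ring genes gave values close to those of the alpha ring. All 7 were measured, 6 of them above 0, with a median log2 ratio of 0.20 and a summed level of 1476 CPM in mutant heads and 1330 CPM in wildtype heads. The summed fold was 1.11 (interval 1.09 to 1.13). Of the single intervals 6 lay above 1, as did those of 27.0% of all features of at least 20 CPM. The 3 proteolytic subunits did not share 1 value. PSMB6 (ENSDARG00000002240), the caspase-like subunit, had 211 CPM in mutant heads and 173 CPM in wildtype heads, a fold of 1.22 (interval 1.16 to 1.28), the highest of the ring. PSMB5, the chymotrypsin-like subunit, had 231 CPM in mutant heads and 201 CPM in wildtype heads, a fold of 1.15 (interval 1.09 to 1.21).

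PSMB7 (ENSDARG00000037962), the trypsin-like subunit, had 247 CPM in mutant heads and 255 CPM in wildtype heads, a fold of 0.969 (interval 0.926 to 1.01). It had both the lowest ratio and the most reads of the ring. The non-catalytic PSMB2, PSMB3, PSMB4 and PSMB1 had folds of 1.198, 1.17, 1.0997 and 1.06. The intervals of PSMB5 and PSMB6 do not overlap that of PSMB7. This covers counting error and says nothing of variation between embryos. How often intervals fail to overlap among other abundant genes was not tested, so nothing is read from it.

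**Figure D2:**
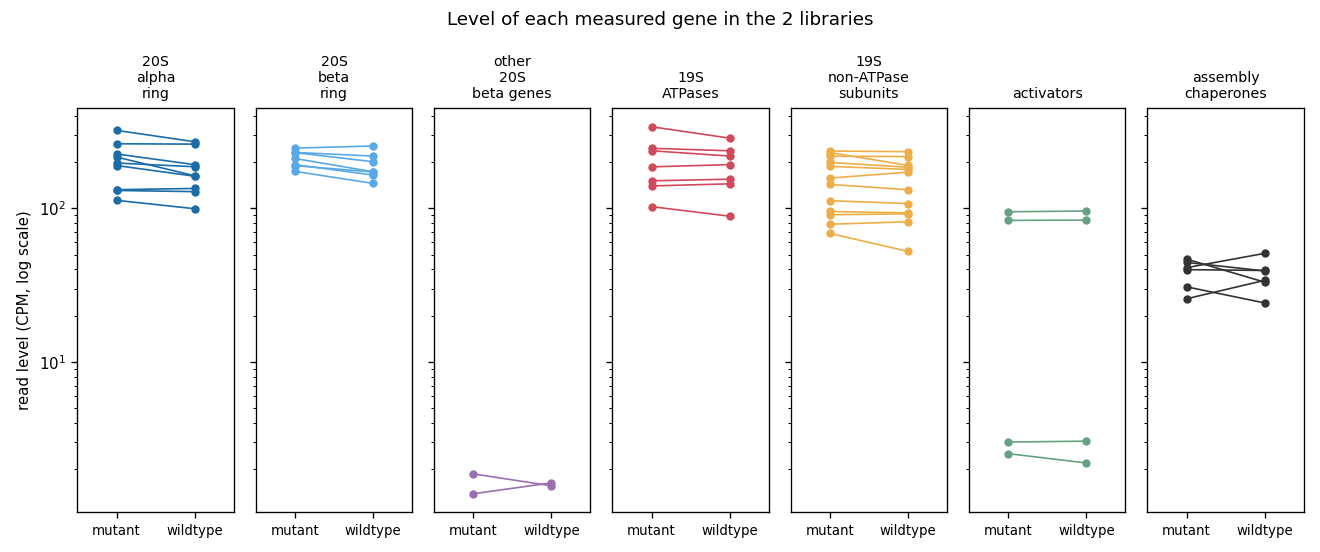
Level in CPM (log scale) of each measured gene in the mutant (left) and wildtype (right) library, joined by a line, 1 panel per role. PSMC3IP and PSME3IP1 are not shown. Core and 19S genes run between 52.4 and 340 CPM with nearly flat lines, assembly chaperones lie between 24.2 and 50.9 CPM, and the immune-type beta genes lie below 2 CPM.

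The 19S particle was nearer to balance. Its ATPases, the ring that unfolds the substrate, had a median log2 ratio of 0.05 over 7 measured genes, with 4 above 0 and 3 below. They summed to 1403 CPM in mutant heads and 1323 CPM in wildtype heads, a fold of 1.06 (interval 1.04 to 1.08). PSMC4 (ENSDARG00000027099) was the highest by ratio and by reads of the group, with 5666 reads or 340 CPM in mutant heads and 4054 reads or 287 CPM in wildtype heads, a fold of 1.19 (interval 1.14 to 1.24). PSMC1 had the lowest ratio, a fold of 0.967 (interval 0.918 to 1.02).

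The ATPases enter the base of the 19S particle as pairs, each with its own chaperone. PSMC4 and its partner PSMC5 (fold 1.08, interval 1.03 to 1.14) both had intervals above 1. PSMC3 and PSMC6 had folds of 1.04 and 0.969, and PSMC1 and PSMC2 had 0.967 and 0.976; all 4 intervals held 1. The second row of the PSMC1 position, psmc1b, had a fold of 1.15 with an interval above 1 (1.07 to 1.24). Intervals above 1 were thus found for 3 of the 7 ATPases, beside 27.0% of all features of at least 20 CPM. With median-of-ratios size factors 4 of the 7 had intervals above 1, beside 31.5% of those features.

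Non-ATPase subunits of the 19S particle include the ubiquitin receptor PSMD4, the large scaffold PSMD1, the deubiquitinase PSMD14 and the other subunits of the lid. All 12 rows were measured, with a median log2 ratio of 0.05, 9 above 0 and 3 below. These 12 rows, without SEM1 and ADRM1 described below, summed to 1818 CPM in mutant heads and 1737 CPM in wildtype heads. That is a fold of 1.05 (interval 1.03 to 1.06). PSMD4 (ENSDARG00000101295) had the highest ratio, with 1144 reads or 68.6 CPM in mutant heads and 741 reads or 52.4 CPM in wildtype heads, a fold of 1.31 (interval 1.19 to 1.44). PSMD8, a lid subunit, had a fold of 1.21 (interval 1.15 to 1.28).

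PSMD14, which cuts ubiquitin chains off the substrate, had 143 CPM in mutant heads and 132 CPM in wildtype heads, a fold of 1.08 (interval 1.02 to 1.15). PSMD1, the most abundant of the group by reads, had 236 CPM in mutant heads and 234 CPM in wildtype heads (fold interval 0.964 to 1.06). PSMD6 (ENSDARG00000070674), a lid subunit, was the 1 row with a psm symbol in the 19S particle with an interval below 1: 157 CPM in mutant heads and 172 CPM in wildtype heads, a fold of 0.915 (interval 0.866 to 0.967). PSMD13 had a fold of 1.08 (interval 1.02 to 1.13). PSMD3, PSMD7, PSMD12 and both PSMD11 rows had intervals that held 1. Over the 19 rows of the particle 7 intervals lay above 1 and 1 below. Among all features of at least 20 CPM those shares were 27.0% and 29.4%.

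The 19S subunits SEM1 and ADRM1 have no psm symbol, and both were lower in mutant heads. They are not in the 19S counts, medians, sums and read shares given here. Adding them would lower the summed fold of the non-ATPase subunits, so 1.05 describes the 12 rows with a psm symbol alone. Those rows had 30306 reads in mutant heads and 24572 in wildtype heads. SEM1 had 1466 reads in mutant heads and 1892 in wildtype heads, and ADRM1 had 1299 and 1406. PSMD2 was not analysed and is also missing from the sum. SEM1, a small lid subunit, had 88.0 CPM in mutant heads and 134 CPM in wildtype heads, a fold of 0.658 (interval 0.614 to 0.705). ADRM1, a ubiquitin receptor named here after its value was seen, had 77.9 CPM in mutant heads and 99.4 CPM in wildtype heads, a fold of 0.784 (interval 0.727 to 0.846). Both folds lie below that of PSMD6, the lowest of the 19 measured 19S rows with a psm symbol.

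Set against each other, core genes held slightly more of the reads in mutant heads. Alpha and beta ring genes took 50.3% of the reads of core and 19S rows in mutant heads (interval 50.05% to 50.6%) and 48.9% in wildtype heads (interval 48.6% to 49.3%). SEM1 and ADRM1 are not among these rows. The intervals do not overlap, but the difference was not tested across samples. Gene length moved with the ratio in these libraries. The authors' RPKM values imply a gene length, and when the 6976 features were put in 3 equal bins of that length, the 2325 shortest (up to 3.20 kb) had a median log2 ratio of 0.04. It was -0.01 in the middle bin and -0.05 in the longest. Of the 45 members of that level, 36 were in the short bin, with a median of 0.11 and 26 above 0. The part of length in the core values was not tested.

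**Figure D3:**
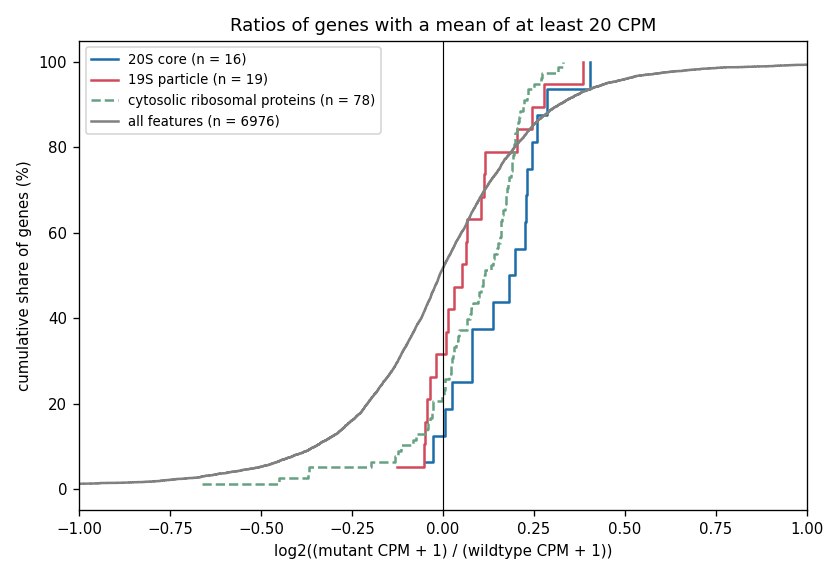
Cumulative share of genes (%) by log2 ratio, mutant over wildtype, for 16 core genes, 19 genes of the 19S particle, 78 cytosolic ribosomal protein genes and all 6976 features of 20 CPM or more on average. All 3 complexes are steeper than the curve of all features, with medians of 0.19 for the core, 0.05 for the 19S particle and 0.11 for ribosomal proteins, against -0.01 for all features.

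Cytosolic ribosomal protein genes, another set of short and abundant messages, had a median log2 ratio of 0.11 over 78 measured rows, with 61 above 0 and 17 below. Of these 1 was higher and 4 were lower by the small step, RPL22 being the highest at 0.33 and rps27.1 the lowest at -0.66. Among all features of at least 20 CPM, 9.85% were higher and 11.4% lower by that step. The cytosolic chaperonin, a barrel that folds new proteins, had a median of -0.07 over 7 genes, from CCT5 at -0.19 to CCT4 at 0.09. The signalosome, whose subunits resemble the 19S lid, had a median of -0.06 over 7 genes, from COPS4 at -0.18 to cops8 at 0.27. None of these 14 passed the small step. Whether any of these sets differs from the proteasome was not tested.

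Levels per length were compared by the deposited RPKM. The median over the alpha ring was 137 RPKM in mutant heads and 116 RPKM in wildtype heads, and over the beta ring 177 RPKM in mutant heads and 154 RPKM in wildtype heads. ATPases had a median of 78.1 RPKM in mutant heads and 80.6 RPKM in wildtype heads, and non-ATPase subunits 58.2 RPKM in mutant heads and 57.8 RPKM in wildtype heads. The assembly chaperones had a median of 31.3 RPKM in mutant heads and 28.8 RPKM in wildtype heads, below the lowest core value of 75.9 RPKM. The length behind these values is not the length column of the table: for 94.9% of 8173 features with at least 200 reads in each library it was shorter, and for 3.08% longer, than that column by over 2%. How it was made is not given, so the order of single genes by RPKM is uncertain.

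Beta genes numbered 8 and above, the immune-type subunits and their fish relatives, had few or no reads in these heads. In mammals PSMB8, PSMB9 and PSMB10 replace PSMB5, PSMB6 and PSMB7 in immune cells and after interferon. PSMB10 had 31 reads in mutant heads and 22 in wildtype heads, and PSMB9 had 23 reads in each. Against their constitutive counterparts PSMB10 held 0.748% of the reads of the PSMB10 and PSMB7 pair in mutant heads (interval 0.509% to 1.06%) and 0.607% in wildtype heads (interval 0.381% to 0.917%). PSMB9 held 0.649% of its pair with PSMB6 in mutant heads (interval 0.412% to 0.973%) and 0.930% in wildtype heads (interval 0.591% to 1.39%). The intervals overlap for both pairs, so no difference was detectable at this depth.

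PSMB8 and psmb13a had 0 reads in both libraries, psmb12 had 1 in mutant heads and 5 in wildtype heads, and psmb11b had 0 in mutant heads and 2 in wildtype heads. For PSMB8 against PSMB5, 0 of 3848 reads in mutant heads allows a share of up to 0.0780%, and 0 of 2845 in wildtype heads up to 0.105%. In the RefSeq table of another assembly (GRCz12tu) psmb8a and psmb13a overlap each other on chromosome 19, and both overlap psmb12 and psmb9a. How reads in overlapping genes were counted is not given, so a 0 there may not mean that the message was absent.

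Of 29 rows in the antigen presentation list, 19 were measured. Their median log2 ratio was -0.05. By the small step 4 members were higher and 4 lower, where 17.3% and 18.2% of all measured features were. In this list ifngr1, an interferon gamma receptor gene, was the highest at 1.69 (98 reads in mutant heads and 16 in wildtype heads). The lowest was mhc1uba at -0.89 (14 reads in mutant heads and 34 in wildtype heads). Leukocyte markers were present but low: 11 of 18 rows were measured, and the list summed to 120 CPM in mutant heads and 143 CPM in wildtype heads. Of the 11, MFAP4 was the highest at a log2 ratio of 0.82 and lyz the lowest at -0.76, with 4 above 0 and 7 below.

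Activators split into abundant and scarce genes. PSME3, which encodes the nuclear activator PA28 gamma, had 94.9 CPM in mutant heads and 96.1 CPM in wildtype heads, the highest level by reads in the group (fold 0.988, interval 0.918 to 1.06). Its log2 ratio of -0.02 was the lowest of the group, though the scarce PSME2 had a fold of 0.987 (interval 0.643 to 1.52). PSME1 and PSME2, which encode the interferon-inducible PA28 alpha and beta of mammals, were scarce. PSME1 had 2 reads in mutant heads and 1 in wildtype heads, and PSME2 had 50 reads in mutant heads and 43 in wildtype heads. PSME4 encodes the large activator PA200 and has 2 rows. The row ENSDARG00000018742, nearest in span to psme4b of RefSeq, had 83.4 CPM in mutant heads and 83.8 CPM in wildtype heads. The row ENSDARG00000087911, nearest to psme4a, had 2.52 CPM in mutant heads and 2.19 CPM in wildtype heads and the highest ratio of the group (log2 ratio 0.14). The intervals of all 4 measured activators held 1, and their median log2 ratio of -0.01 turned to 0.02 with median-of-ratios size factors.

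Among the proteasome roles the assembly chaperones had the widest spread of ratios, close to that of all features of their level. Their 6 log2 ratios ran from -0.39 to 0.49, with a standard deviation of 0.35, against 0.13 over the 16 measured core genes, 0.13 over the 19 rows of the 19S particle and 0.38 over all 6976 features of 20 CPM or more, a level that all 6 reach. They were less abundant than the subunits, with 342 to 778 reads per gene and library. The part of counting error in their spread was not tested. Of the 6, 3 had intervals above 1 and 2 below, where 27.0% and 29.4% of all features of that level did. By the small step 2 were higher and 1 was lower, where the shares of all features of that level were 9.85% and 11.4%. With 6 genes nothing is read from these counts.

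Chaperones of the ATPase base differed in direction. PSMD9 (ENSDARG00000006300), which holds the PSMC3 and PSMC6 pair, had 778 reads or 46.7 CPM in mutant heads and 467 reads or 33.0 CPM in wildtype heads. Its fold of 1.41 (interval 1.26 to 1.59) was the highest of all measured members. PSMD5 (ENSDARG00000059046), which holds the PSMC1 and PSMC2 pair and had the highest mean CPM of the role over the 2 libraries, had 684 reads or 41.0 CPM in mutant heads and 720 reads or 50.9 CPM in wildtype heads, a fold of 0.806 (interval 0.725 to 0.897). PSMD10, known as gankyrin, which holds the PSMC4 and PSMC5 pair, had 39.8 CPM in mutant heads and 39.4 CPM in wildtype heads (fold interval 0.903 to 1.13). The ATPase values are those given above, and none of the 3 pairs was tested against its chaperone.

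Chaperones of the core also differed. PSMG1 and PSMG2 work as a pair on the alpha ring. PSMG1 (ENSDARG00000040620) had 513 reads or 30.8 CPM in mutant heads and 342 reads or 24.2 CPM in wildtype heads, a fold of 1.27 (interval 1.11 to 1.46). PSMG2 had a fold of 1.14 (interval 1.02 to 1.27). PSMG3 (ENSDARG00000098391), part of the other alpha ring chaperone pair, had 429 reads or 25.7 CPM in mutant heads and 480 reads or 33.9 CPM in wildtype heads. Its fold of 0.759 (interval 0.664 to 0.866) was the lowest of all measured members. POMP, the maturation factor of the beta ring that has no psm symbol, had a fold of 1.08 (interval 1.01 to 1.16) and was named after its value was seen.

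Of the 2 genes named for a binding partner, PSMC3IP, a recombination factor, had 19.6 CPM in mutant heads and 23.7 CPM in wildtype heads, a fold of 0.826 (interval 0.707 to 0.965). PSME3IP1, which binds PA28 gamma, had 34.6 CPM in mutant heads and 34.9 CPM in wildtype heads.

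Zebrafish keep several subunits as gene pairs, and 6 pairs were compared by how they divide their reads. psma2a held 50.3% of the reads of its pair with PSMA2 in mutant heads and 51.2% in wildtype heads. Of the PSMA6 rows, ENSDARG00000013966 held 37.2% in mutant heads and 38.0% in wildtype heads. Of the PSMD11 rows, ENSDARG00000005134 held 45.2% in mutant heads and 46.7% in wildtype heads. In the PSME4 pair the scarce row held 2.93% in mutant heads and 2.55% in wildtype heads. The intervals of the 2 libraries overlap in these 4 pairs.

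In 2 pairs they did not. How often this holds among other gene pairs was not tested, so nothing is read from the count. PSMD4 held 38.0% of its pair with psmd4b in mutant heads (interval 36.2% to 39.7%) and 32.8% in wildtype heads (interval 30.9% to 34.8%). psmd4b alone had 112 CPM in mutant heads and 107 CPM in wildtype heads (fold interval 0.976 to 1.12). psmc1b held 35.5% of its pair with PSMC1 in mutant heads (interval 34.2% to 36.9%) and 31.6% in wildtype heads (interval 30.1% to 33.0%). PSMC1 alone lay within counting error. Members of a pair may be alike in sequence, and how reads that fit both were counted is not given.

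**Figure D4:**
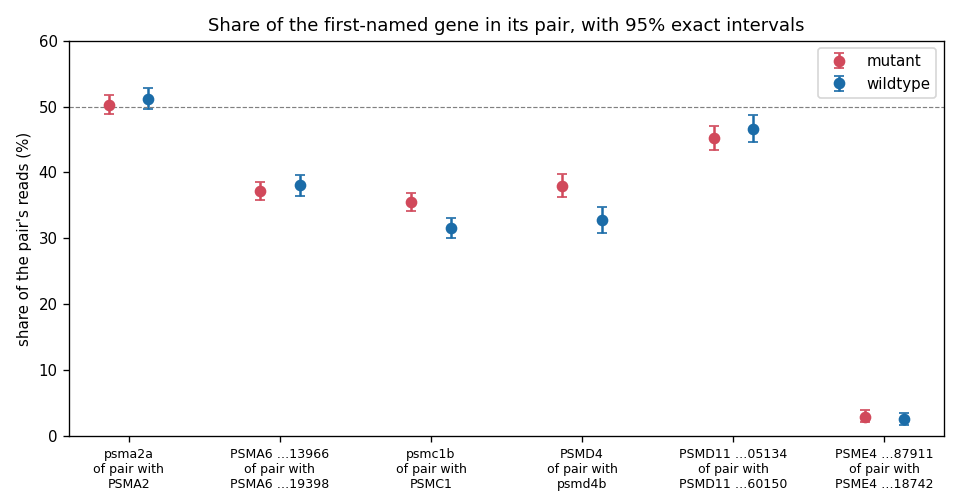
Share (%) of a gene pair's reads held by the first-named gene, in the mutant (left) and wildtype (right) library, with 95% exact intervals; the dashed line marks equal shares. The intervals do not overlap for PSMD4 (38.0% in mutant heads, 32.8% in wildtype heads) and psmc1b (35.5% in mutant heads, 31.6% in wildtype heads).

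Partners of the proteasome were taken from a list that includes inhibitor, assembly, deubiquitinase and shuttle genes. The list also holds the 19S subunits SEM1 and ADRM1, the ligase UBE3C and some other genes. All 16 rows were measured, with a median log2 ratio of 0.00, 8 above 0 and 8 below. By the small step 1 was higher (UBE3C) and 2 were lower (SEM1 and ADRM1), where 17.3% and 18.2% of all measured features were. Among features of at least 20 CPM, a level that most of the 16 reach, those shares were 9.85% and 11.4%. UBE3C, a ligase that acts on substrates held at the proteasome, was the highest, with 41.5 CPM in mutant heads and 32.3 CPM in wildtype heads, a fold of 1.28 (interval 1.14 to 1.45). SEM1, described above, was the lowest. The 19S-bound deubiquitinases USP14 and UCHL5, named after their values were seen, had folds of 1.196 (interval 1.12 to 1.27) and 1.14 (interval 1.07 to 1.22).

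In the list of ubiquitin and activating enzyme genes, ubc and ubb, which encode chains of ubiquitin repeats, were lower in mutant heads. ubb had the lowest ratio of its list, with 28.0 CPM in mutant heads and 41.1 CPM in wildtype heads, a fold of 0.682 (interval 0.603 to 0.772). ubc, named after its value was seen, had 653 CPM in mutant heads and 926 CPM in wildtype heads, a fold of 0.705 (interval 0.688 to 0.724). rps27a, which encodes ubiquitin fused to a ribosomal protein, had the highest ratio of those described, with 1764 CPM in mutant heads and 1732 CPM in wildtype heads, a fold of 1.02 (interval 1.002 to 1.04). Over 7 measured genes the median log2 ratio was -0.22, the value of UBA2. UBA2 and UBA3 encode parts of activating enzymes of ubiquitin-like proteins, not of ubiquitin. By the small step 3 genes (ubb, ubc and UBA6) were lower and none was higher, where 18.2% and 17.3% of all measured features were. Among features of at least 20 CPM, a level that all 7 reach, those shares were 11.4% and 9.85%.

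Nrf1, encoded by nfe2l1 genes, is the transcription factor known in mammals to raise proteasome genes when the proteasome is blocked, and p97, encoded by VCP, draws it and many substrates from the membrane of the endoplasmic reticulum. The NFE2L1 row was not measured, with 7 reads in mutant heads and 11 in wildtype heads (fold interval 0.178 to 1.53). nfe2l1b had 21.4 CPM in mutant heads and 34.6 CPM in wildtype heads, a fold of 0.617 (interval 0.537 to 0.708). Its log2 ratio of -0.67 was the lowest of 15 measured genes in this list, while the scarce nfe2l2b, with 22 reads in mutant heads and 33 in wildtype heads, had the lower fold (0.566, interval 0.314 to 1.0002). maff, a small Maf partner, was the highest, with 38.0 CPM in mutant heads and 33.3 CPM in wildtype heads. VCP, named after its value was seen, had 650 CPM in mutant heads and 640 CPM in wildtype heads (fold interval 0.987 to 1.04). The list had a median log2 ratio of -0.02. By the small step 3 were lower and none was higher, where 18.2% and 17.3% of all measured features were. Among features of at least 20 CPM, a level that most of the 15 reach, those shares were 11.4% and 9.85%.

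The list of heat shock genes, most of whose products bind unfolded proteins or help to do so, also holds the transcription factor genes hsf1 and HSF2. Its median log2 ratio was -0.41 over 20 measured rows. By the small step 11 were lower and 1 was higher, where 18.2% and 17.3% of all measured features were. hsp70.3 was the lowest, with 4.26 CPM in mutant heads and 102 CPM in wildtype heads, and HSPE1, a mitochondrial cochaperone, the highest at 0.41. Copies of hsp70 genes are near-identical, so single values are uncertain. Among the 35 measured core and 19S rows with a psm symbol the lowest log2 ratio was that of PSMD6 at -0.13, while SEM1 was at -0.60 and ADRM1 at -0.35; the lists were not tested against each other.

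**Figure D5:**
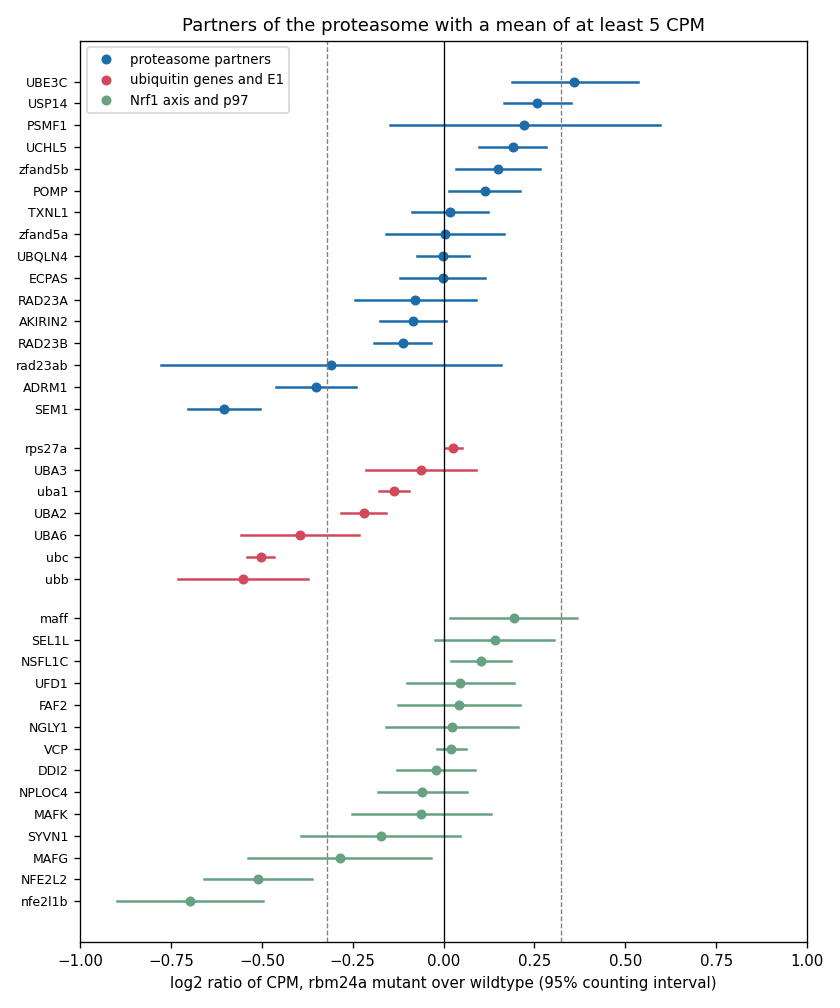
Log2 ratio of CPM, mutant over wildtype, of 37 partner genes with a mean of at least 5 CPM in 3 lists; bars are 95% counting intervals and dashed lines mark the small step, a log2 ratio of 0.32 either way. SEM1 (fold 0.658), ADRM1 (0.784), ubb (0.682), ubc (0.705), UBA6 (0.760), nfe2l1b (0.617) and NFE2L2 (0.701) lie left of the left dashed line. UBE3C (1.28) lies right of the right one.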

How the data were processed

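Messenger RNA libraries were made with the TruSeq kit and read as 100 bp pairs, per the labels' protocols. The submitters' processing notes name HISAT2 2.0.1, HTSeq 0.6.1, DESeq2, cutadapt and bcl2fastq 2.17.1.14, and build GRCz11. What each tool did, which annotation was used and how strand was treated is not given in the sources used here, so reads of genes that overlap or are antisense to each other cannot be separated. The authors deposited whole-number read counts per feature and RPKM values. The authors' deposited table of their comparison holds 37 genes with counts, FPKM, a signal column of counts after size-factor scaling, a ratio of wildtype over mutant, the log2 of that ratio, and p-values; those p-values come from 1 library against 1 and are not printed. No other per-sample column was present (0).

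CPM were scaled by the column sum with Python 3.11.15 and pandas 2.3.3, and a filter of 1 CPM (mean of both libraries) and a pseudocount of 1 CPM were used. Intervals came from scipy 1.17.1 and TMM factors from edgeR 4.0.16. A share at a count of 0 was limited at 3 counts. The counting error of subunit genes differed with their depth. Fold intervals ran from 1.14 to 1.24 for PSMC4, 1.19 to 1.44 for PSMD4 and 0.455 to 1.58 for PSMB9. The call and interval steps were run on simulated counts that held counting error alone, as the intervals assume. That run checks the code and cannot show how the intervals do with PCR copies or variation between embryos.

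Members and gene lists were chosen with earlier results of these data known. Named genes are, per role, the highest and lowest ratio and the most reads; all members past the small step (25% higher or 20% lower); gene pairs; catalytic pairs; and the highest and lowest ratio of each related list. Others are marked as named after their values were seen, complete a role, or describe what a list or figure holds. Alternatives changed the pseudocount, the filter and the scaling. Promoter and protein sequences were not analysed here, and 1 gene of the ubiquitin list is not reported here.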

Additional observations from a re-analysis of the deposited data

How the results depend on the processing

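No paired analysis was possible because there is a single library of each genotype, and leaving 1 out would leave nothing to compare. There were 11 alternatives, of which the authors' size factors were chosen after seeing the data. The authors' factors (1.07 for mutant and 0.932 for wildtype heads) are the same, when rounded, as the median-of-ratios ones. They repeat that setting and add no separate check. Over the 11 alternatives, 529 values of single members moved by less than their counting interval, and none of the called members turned direction. A changed filter cannot alter the ratio of a single gene, and a changed scaling shifts all genes by nearly the same amount. The count of 529 is therefore no measure of robustness. The count past 2-fold was 0 in both directions under each of the 11. The count lower by the small step (20%) became 2 without a filter, where psmb12 entered with 1 read in mutant and 5 in wildtype heads. PSMG1 was past the small step in 11 of 12 settings and reached 0.29 in the other, a pseudocount of 5; PSMD9, PSMA5, PSMD4 and PSMG3 were past it in all 12. The log2 ratio of summed CPM moved beyond its counting interval with median-of-ratios size factors, to 0.194 for the alpha ring, 0.183 for the beta ring, 0.117 for the ATPases and 0.0987 for the non-ATPase subunits, and to the same rounded values with the authors' size factors. That shift follows from the scaling, which moved all features by 0.03. The median of all measured members ran from 0.05 without a filter to 0.10 with size factors. With 1 library per group, folds near 1.1 cannot be set against variation between samples.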
